A study of Mus musculus with 45 samples.

Results

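The Ms4a4 and Ms4a6 genes encode small membrane proteins of the membrane-spanning 4A family, and 7 of them were followed in mouse microglia and brain tissue: Ms4a4a, Ms4a4b, Ms4a4c, Ms4a4d, Ms4a6b, Ms4a6c and Ms4a6d. They were chosen by name. All 7 were listed among 55450 genes in the counts of slice microglia and among 47643 in those of adult microglia. In the counts of brain tissue, 6 were among 43411 genes, and Ms4a4a was not analysed here for brain. After a filter on low counts, 5 of the 7 were tested in slice microglia (of 11313 genes) and 5 in adult microglia (of 12987 genes), without Ms4a4b and Ms4a4d in either, and 3 in brain tissue (of 15083 genes), namely the Ms4a6 genes.

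RNA sequencing covered 45 samples from C57BL/6 mice without a genetic change named in the labels. Brain slices from newborn pups were kept for 2 weeks in culture, and microglia were then sorted from slices given medium alone (9 samples), TNF at 50 ng/mL (11 samples) or GM-CSF at 20 ng/mL (9 samples) over 24 h, with 3 slices pooled per sample by the labels. Microglia were also sorted from mice of 10 to 15 weeks given PBS (4 samples) or intraperitoneal LPS at 1 mg/kg (4 samples) 24 h earlier, the methods describing these mice as female and perfused. Whole brain tissue came from untreated, uninjected mice (4 samples) and from mice given LPS (4 samples) of the same age range. TNF and GM-CSF are cytokines, and LPS is a cell wall component of Gram-negative bacteria. Microglia were gated as live CD11b high, CD45 intermediate cells, a gate that other myeloid cells can in part enter. Each in vivo sample was 1 mouse, so a replicate there is an animal, whereas a slice sample pools slices.

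Proteins of the MS4A family span the membrane several times and are thought to act as partners or modulators of other receptors, as the B cell antigen CD20, encoded by Ms4a1, does. In the myeloid lineage the Ms4a4 and Ms4a6 genes are transcribed mainly by monocytes and macrophages, and MS4A4A associates with the fungal receptor dectin-1, encoded by Clec7a. In people, variants at the MS4A gene cluster are associated with the risk of Alzheimer's disease and with the level of soluble TREM2, a microglial receptor.

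The 7 genes lay within 229.327 kb of chromosome 19 (GRCm38, chr19:11375523-11604849, GENCODE M21). Along the chromosome the order was Ms4a4a (11375523 to 11392790), Ms4a4c (11404770 to 11427246), Ms4a4b (11443553 to 11467055), Ms4a6c (11469366 to 11482192), Ms4a6b (11516512 to 11531256), Ms4a4d (11536801 to 11558467) and Ms4a6d (11586604 to 11604849). The first 6 are on the plus strand and Ms4a6d is on the minus strand. Only 1 protein-coding gene that was no member, Gm8369, lay inside this span.

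Several members are near copies. The longest annotated coding sequences of Ms4a4b and Ms4a4c, each of 678 bases, were identical at 91.7% of aligned bases. Those of Ms4a4c and Ms4a4d were identical at 86.1%, and those of Ms4a6b and Ms4a6c at 85.0%. The likeness extended upstream, where the 250 bases before the RefSeq start sites of Ms4a6b and Ms4a6c aligned over 172 bases with 86.0% identity, and those of Ms4a4b and Ms4a4c over 132 bases with 88.6% identity. These 4 upstream stretches are shown because the genes of each pair are near copies, and the counts of 3 of the genes moved together below. They are from RefSeq (GRCm38.p6), on the plus strand, each ending before the first annotated exon base. For Ms4a6b this leaves 144 of the 250 bases, so part of its alignment with Ms4a6c lies past that base. The Ms4a4c and Ms4a6b stretches lie upstream of the usual first exon but in the first intron of 1 annotated longer transcript, and the other pair is intergenic. The capitals mark GAAANNGAA, the shortened core of the element bound by interferon regulatory factors, a form chosen after the sequences were seen.
Ms4a4b (chr19:11443308-11443552): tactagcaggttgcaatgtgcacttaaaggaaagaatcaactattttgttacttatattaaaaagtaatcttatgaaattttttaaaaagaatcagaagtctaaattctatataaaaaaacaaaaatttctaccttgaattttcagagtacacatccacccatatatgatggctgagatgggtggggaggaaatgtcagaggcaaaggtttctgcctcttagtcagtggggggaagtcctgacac
Ms4a4c (chr19:11407411-11407660): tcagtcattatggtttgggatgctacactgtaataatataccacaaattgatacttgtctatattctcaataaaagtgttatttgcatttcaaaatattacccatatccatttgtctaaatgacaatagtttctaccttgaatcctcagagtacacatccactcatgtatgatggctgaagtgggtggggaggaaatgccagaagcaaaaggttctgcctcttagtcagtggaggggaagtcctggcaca
Ms4a6b (chr19:11518309-11518452): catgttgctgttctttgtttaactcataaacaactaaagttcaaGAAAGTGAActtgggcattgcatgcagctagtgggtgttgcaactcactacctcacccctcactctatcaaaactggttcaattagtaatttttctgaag
Ms4a6c (chr19:11469118-11469365): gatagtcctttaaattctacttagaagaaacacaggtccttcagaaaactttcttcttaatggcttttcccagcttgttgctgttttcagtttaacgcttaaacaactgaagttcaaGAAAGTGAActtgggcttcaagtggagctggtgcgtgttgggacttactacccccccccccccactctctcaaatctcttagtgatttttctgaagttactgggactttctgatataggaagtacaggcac

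Upstream windows of 250 bases were matched for 6 of the 7 members, all but Ms4a6d, and searched on both strands. GAAANNGAA was in the Ms4a6b and Ms4a6c windows, 206 and 133 bases before the RefSeq start, and in 7.13% of all 32851 windows of this length. The same letters followed by a further A, in 2.98% of all windows, matched no member. AGGAAGT, a form bound by ETS factors such as PU.1, was in 7.69% of all windows and in those of Ms4a6b and Ms4a6c. The Ms4a6b matches lay past the first annotated exon base of its window, outside the stretch printed. A match to the kappa B consensus, found in 3.899% of windows, lay 247 bases before the start of Ms4a4a. These matches describe the letters of the windows and no binding was measured.

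Near copies can share reads, so the stretches of read length that a member has in common with other genes were counted over annotated transcripts on either strand. At 75 bases, the read length of the slice libraries, 3.78% of the stretches of Ms4a4c and at most 1.18% of those of Ms4a4a, Ms4a4b, Ms4a4d, Ms4a6b and Ms4a6d were shared with any other gene. At 50 bases, as in the in vivo libraries, the share reached 8.19% for Ms4a4c. Ms4a6c stood apart with 47.7% at 75 bases and 51.4% at 50 bases. Nearly all of that sharing was with BE692007, an annotated noncoding transcript on the opposite strand, and with other members Ms4a6c shared 1.11% at 75 bases. The libraries of sorted cells do not mark strand, so reads of Ms4a6c and BE692007 cannot be told apart where they overlap. BE692007 itself was listed at a median of 6.43 CPM (counts scaled to a common library total) in medium, 16.6 in TNF and 5.29 in GM-CSF. Adding its counts to Ms4a6c, an alternative chosen after the data were seen, gave log2 fold changes of Ms4a6c of 1.70 for TNF, -0.33 for GM-CSF, 3.76 for LPS in adult microglia and 2.84 in brain, and changed none of its calls. Reads that the counting may have left out of both genes are not brought back by this sum. It therefore does not settle how the sharing affects Ms4a6c.

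Total counts per library ran from 5973364 to 9165485 for slices, from 11391564 to 14216005 for adult microglia and from 8199863 to 10368578 for brain. Levels below are CPM of the total over the tested genes, scaled by edgeR's TMM factors. Fold changes, standard errors (SE) and adjusted p-values are from edgeR's quasi-likelihood test with Benjamini-Hochberg adjustment over all genes tested. A gene was called changed where the adjusted p was below 0.05 and the change exceeded 1.5-fold. The 8 microglia markers were detected in all sorted groups, with summed levels of 16621 to 24694 CPM in medium, 11585 to 13890 in GM-CSF, 7144 to 9194 in TNF, 44864 to 49791 in PBS and 28575 to 35564 in adult LPS. In a bulk sample, fewer cells of a type and less RNA per cell cannot be told apart. One adult library, LPS replicate 2, stood apart from the other LPS libraries and is described with the adult results.

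TNF was compared with medium to ask how the cytokine changes gene expression in slice microglia. TNF raised Ms4a4c and all 3 Ms4a6 genes, whereas Ms4a4a was not called. Ms4a4c changed 19.3-fold, the Ms4a6 genes 2.35- to 3.29-fold. Of the 5 members tested, 4 were called higher, while 9.1% of all genes tested were called higher in this comparison. The members' median log2 fold change was 1.65, against -0.03 over all genes.

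Ms4a4c, a myeloid Ms4a4 gene whose function is little known, was at 4.82 CPM in the lowest medium library, 7.57 in the median and 19.6 in the highest. With TNF it ranged from 110 through a median of 185 to 299 CPM. All 11 TNF libraries lay above all 9 medium libraries. The log2 fold change was 4.27 (SE 0.25, 95% interval 3.76 to 4.77, adjusted p = 1.59e-15), which ranked Ms4a4c 54th of 11313 genes by log2 fold change.

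Ms4a6d, which is transcribed by macrophages, was at 216, 342 and 478 CPM in the lowest, median and highest medium library and at 746, 1092 and 1395 CPM with TNF. The groups did not overlap, and the log2 fold change was 1.65 (SE 0.13, interval 1.38 to 1.92, adjusted p = 1.51e-12). Ms4a6c, of the same subfamily, was at 41.8, 75.3 and 125 CPM in medium and at 178, 246 and 351 CPM with TNF. Again every TNF library was higher, with a log2 fold change of 1.72 (SE 0.17, interval 1.38 to 2.06, adjusted p = 1.62e-10). Ms4a6b was at 64.4, 93.2 and 158 CPM in medium and at 168, 235 and 303 CPM with TNF. It had the smallest rise of the 4, again without overlap of the groups, at a log2 fold change of 1.23 (SE 0.16, interval 0.90 to 1.57, adjusted p = 1.71e-07). In all, 4 of the 5 members had every TNF library above every medium library, against 6.25% of all genes tested.

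Ms4a4a, the mouse counterpart of MS4A4A, was at 27.9, 46.7 and 74.0 CPM in medium and at 21.6, 39.1 and 73.6 CPM with TNF. These ranges overlapped almost wholly, and the log2 fold change of -0.28 (SE 0.18, interval -0.64 to 0.08, adjusted p = 0.222) was not called.

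Ms4a4b, known from T and NK cells, and Ms4a4d were too scarce in slice microglia to be tested. Ms4a4b had 0 counts in 8 medium libraries and 5 counts in the other. With TNF it had 0 to 15 counts per library, median 8, and in GM-CSF 0 to 2 counts. Summed over libraries this is 76 counts in TNF and 5 in medium, a depth-scaled ratio of 12.8 with an exact counting interval of 5.25 to 40.5, which covers counting error only and not the spread between libraries. Ms4a4b and Ms4a4c shared 66 stretches of 75 bases, and the Ms4a4c count was far higher, so these few reads cannot be assigned firmly. The 12 markers of T and NK cells summed to 0.914 to 4.62 CPM in TNF, 0 to 2.09 in medium and 0 to 3.36 in GM-CSF. Only Lck of these was tested, called higher with TNF (log2 fold change 2.38) and not called with GM-CSF (0.73). As the sums reached down to 0 in medium and GM-CSF, Lck could not pass the filter on either group alone. The part of these markers in the Ms4a4b counts was not tested. Ms4a4d was listed with 4 counts in 1 TNF library and 0 elsewhere in the slices. The summed markers of other myeloid cells overlapped in range between TNF and medium. The 8 border macrophage markers summed to 447 to 938 CPM with TNF, 301 to 567 in medium and 381 to 775 with GM-CSF, and the 8 monocyte markers to 261 to 494, 154 to 485 and 173 to 590 CPM. Of 7 border macrophage markers tested with TNF, Clec4n was called higher (2.24) and Mrc1, Folr2 and Lyve1 lower, at a median log2 fold change of -1.12, whereas the ranges of the sum lay higher with TNF. With GM-CSF 1 was called higher and 1 lower, at a median of -0.47. The neutrophil markers summed to 3.57 to 128 CPM with TNF, 0.834 to 15.8 in medium and 3.19 to 44.1 with GM-CSF. Of the 3 tested, S100a8 (2.18) and Mmp8 (2.43) were called higher with TNF, at a median of 2.34. With GM-CSF their median was 2.06 and edgeR called 0 of 3, with 2 at an unadjusted p under 0.05. Their part in the members' change was not tested.

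**Figure D1:**
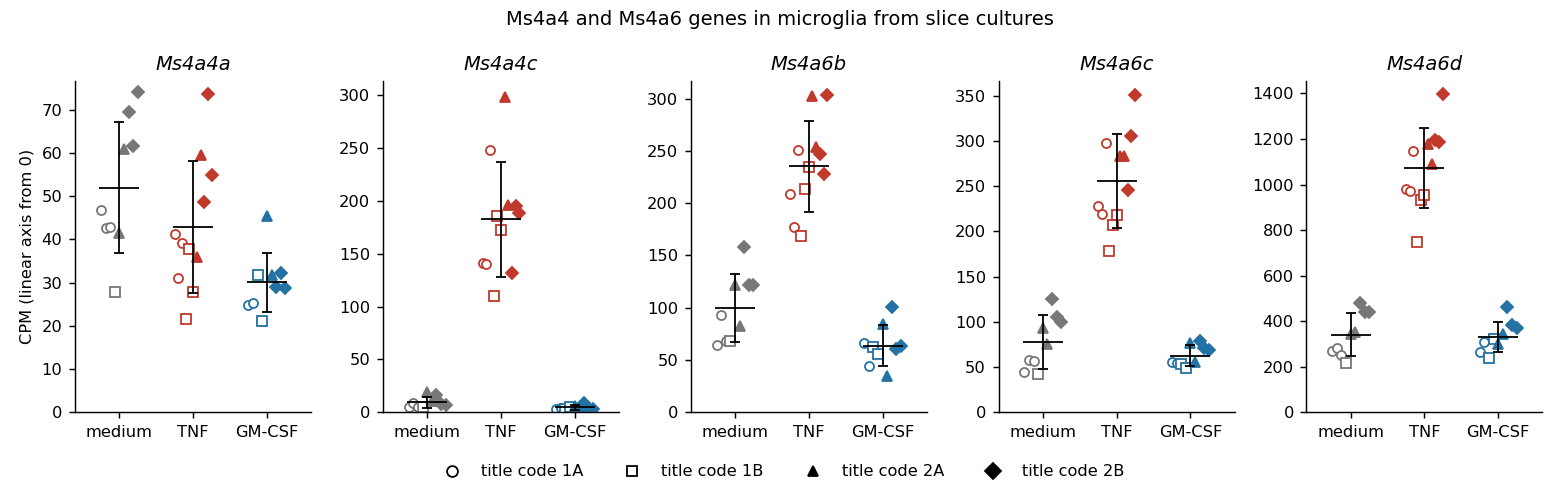
Levels of the 5 tested genes in each slice microglia library, in CPM on linear axes that differ between panels, by treatment, with 1 marker per library and the bar showing the mean with SD (9 medium, 11 TNF and 9 GM-CSF libraries). Open markers have title codes 1A or 1B and filled markers 2A or 2B; the TNF libraries lie above all medium libraries for Ms4a4c (110 to 299 against 4.82 to 19.6 CPM) and the Ms4a6 genes, and among them for Ms4a4a.

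GM-CSF was compared with the same 9 medium libraries. GM-CSF lowered Ms4a4a, Ms4a4c and Ms4a6b, with log2 fold changes of -1.05 to -0.65, while Ms4a6c and Ms4a6d were not called. So 3 of the 5 members tested were called lower and none higher, against 5.96% of all genes called lower and 4.84% called higher. The members' median log2 fold change was -0.65, against -0.04 over all genes. The medium libraries are shared with the TNF comparison, so the 2 comparisons are not independent.

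Ms4a4c was at 2.76, 4.12 and 9.07 CPM in the lowest, median and highest GM-CSF library, against 4.82 to 19.6 CPM in medium. Below the lowest medium library lay 6 of the 9 GM-CSF libraries, and the log2 fold change was -1.05 (SE 0.27, interval -1.61 to -0.49, adjusted p = 0.00394). Ms4a4a was at 21.2, 29.04 and 45.5 CPM with GM-CSF, where only 3 of 9 libraries lay below the lowest medium library. Its log2 fold change was -0.79 (SE 0.19, interval -1.18 to -0.40, adjusted p = 0.00167). Ms4a6b was at 34.8, 62.4 and 100.2 CPM, again with 6 of 9 libraries below all medium libraries, and changed by -0.65 (SE 0.17, interval -1.001 to -0.304, adjusted p = 0.0041). The groups overlapped for all 3 genes, and no member had every GM-CSF library below every medium library, as 2.67% of all genes did.

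Ms4a6c was at 49.0, 55.8 and 78.7 CPM with GM-CSF, within the medium range, with a log2 fold change of -0.31 (SE 0.17, interval -0.66 to 0.03, adjusted p = 0.189). Ms4a6d was at 239, 321 and 462 CPM, also within the medium range. Its log2 fold change of -0.04 (SE 0.13, interval -0.31 to 0.23, adjusted p = 0.870) took the opposite sign, at most 0.15, under 4 of the alternatives tried, total counts among them.

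The titles of the slice samples carry the codes 1A, 1B, 2A and 2B, whose meaning is not in the labels, and the levels in medium moved with them. Mean Ms4a6d in medium was 268 CPM over the 1A libraries, 216 in the lone 1B library, 347 over 2A and 453 over 2B. Mean Ms4a4a in medium was 44.1, 27.9, 51.2 and 68.4 CPM in the same order, and in GM-CSF 25.04, 26.5, 38.7 and 30.01 CPM. The TNF calls held in both pairs of codes, with log2 fold changes within 1A and 1B of 4.76 for Ms4a4c, 1.51 for Ms4a6b, 2.17 for Ms4a6c and 1.91 for Ms4a6d, and within 2A and 2B of 4.04, 1.13, 1.55 and 1.56.

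The GM-CSF calls depended on which codes were included. With the title code as a block over all slice libraries, Ms4a4a (-0.72), Ms4a4c (-1.01) and Ms4a6b (-0.62) stayed called lower. Within 2A and 2B, Ms4a4a (log2 fold change -0.87), Ms4a4c (-1.22) and Ms4a6b (-0.81) were all called lower. Within 1A and 1B only Ms4a4a was (-0.64, adjusted p = 0.0387), with Ms4a4c at -0.69 (adjusted p = 0.116) and Ms4a6b at -0.36 (adjusted p = 0.106). Without the 2B libraries only Ms4a4c was called (-1.07), with Ms4a4a at -0.54 (adjusted p = 0.0675) and Ms4a6b at -0.52, under the fold limit. Ms4a4c was also not called by limma-voom (adjusted p = 0.134).

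Set directly against each other, TNF gave higher levels than GM-CSF for the same 4 members, where 8.25% of all genes tested were called higher. The log2 difference was 5.32 for Ms4a4c (SE 0.27, 39.9-fold, adjusted p = 5.6e-17), 2.03 for Ms4a6c, 1.89 for Ms4a6b and 1.69 for Ms4a6d, and for each of the 4 all 11 TNF libraries lay above all 9 GM-CSF libraries, as for 5.3% of all genes. Ms4a4a differed by 0.51 (SE 0.18, adjusted p = 0.0308), a 1.42-fold difference under the fold limit. This value moved with the title codes, from 0.37 within 1A and 1B (adjusted p = 0.195) to 0.68 within 2A and 2B (adjusted p = 0.0154), where it was called, as it was without 1B (0.63) and without 2A (0.59).

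Levels of different genes can be set side by side only per length, here as mean CPM per kb of annotated exon. The length joins the exons of all annotated transcripts of a gene, so the orders depend on the annotation. In medium the order was Ms4a6d at 197 ± 54.2 (SD, n = 9), Ms4a4a at 62.2 ± 18.2, Ms4a6c at 38.0 ± 14.5, Ms4a6b at 22.3 ± 7.22 and Ms4a4c at 5.43 ± 2.97 CPM per kb. The spreads of Ms4a4a and Ms4a6c met, as did those of Ms4a6c and Ms4a6b. With TNF the order was Ms4a6d at 617 ± 101 (n = 11), Ms4a6c at 125 ± 25.3, Ms4a4c at 104 ± 31.1, Ms4a6b at 52.4 ± 9.71 and Ms4a4a at 51.3 ± 18.2. Ms4a4c thus went from the lowest of the 5 to a level within the spread of Ms4a6c, and Ms4a6b and Ms4a4a lay within each other's spread. Ms4a6d ranked 229th of 11298 genes with an exon length in medium and 66th with TNF.

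LPS given to mice was compared with PBS in sorted adult microglia. LPS raised all 5 members tested, by 3.55-fold for Ms4a6b up to changes from almost no reads for Ms4a4a. Ms4a4a passed the low-count filter only through the LPS libraries, in which it was high, and is left out of the following counts. Its fold change and adjusted p below carry this limit. Ms4a4c and the 3 Ms4a6 genes passed on the PBS libraries alone, and all 4 were called higher, against 14.4% of all genes tested. In each of the 4 every LPS library lay above every PBS library, as in 24.1% of all genes.

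Ms4a4a, present in slice microglia under every condition, was nearly absent from PBS microglia, with 6, 3, 0 and 0 counts, or 0.431, 0.216, 0 and 0 CPM. In the LPS libraries it had 383, 21, 476 and 649 counts, or 27.9, 1.80, 36.5 and 47.8 CPM. The LPS values were all higher, with replicate 2 far below the other 3. The fitted log2 fold change was 7.35 (SE 1.32, interval 4.24 to 10.46, adjusted p = 0.00278), and with so few PBS counts its size depends on the model. As a ratio of pooled counts it was 176, with an exact counting interval of 92.4 to 385. By limma-voom it was not called (adjusted p = 0.135).

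Ms4a4c was at 3.02, 4.96, 2.58 and 1.23 CPM with PBS and at 37.6, 12.2, 39.3 and 41.1 CPM with LPS. It rose by 3.46 on the log2 scale (SE 0.51, interval 2.27 to 4.65, adjusted p = 0.000882), or 11.03-fold. Ms4a6c was at 29.2, 30.03, 30.6 and 24.9 CPM with PBS, a narrow range, and at 392.1, 164, 543 and 477 CPM with LPS. Its log2 fold change of 3.78 (SE 0.38, interval 2.88 to 4.68, adjusted p = 0.000159), or 13.7-fold, was the highest among the Ms4a6 genes here. BE692007, which shares the locus, changed by 3.64 (SE 0.37), from 4.67 to 6.70 CPM with PBS to 33.2 to 102 CPM with LPS.

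Ms4a6d was at 118, 132, 119 and 125 CPM with PBS and at 641, 361, 859 and 796 CPM with LPS. It rose 5.37-fold (log2 fold change 2.42, SE 0.26, interval 1.83 to 3.02, adjusted p = 0.000125). Ms4a6b was at 140, 143, 122 and 131 CPM with PBS and at 518, 236, 612 and 538 CPM with LPS. Its log2 fold change was the smallest of the 5, at 1.83 (SE 0.28, interval 1.18 to 2.48, adjusted p = 0.00102).

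Ms4a4b and Ms4a4d did not pass the filter. Ms4a4b had 0, 1, 0 and 0 counts with PBS and 26, 5, 12 and 28 with LPS, a ratio of pooled counts of 73.5 with an exact counting interval of 12.8 to 2944. Ms4a4b and Ms4a4c shared 135 stretches of 50 bases, and Ms4a4c had 1729 counts over the LPS libraries. As in the slices, these few Ms4a4b reads cannot be assigned firmly. Ms4a4d had 0 counts in every PBS library and 4, 3, 1 and 6 with LPS. This is 4.83-fold higher when PBS is set at a floor of 3 counts over the group, with the LPS counts taken as exact. Both genes were therefore listed in all 4 LPS libraries, at low counts. Of the 12 T and NK cell markers, 9 were at 0 in all LPS libraries, Cd3e, Cd8a and Ncr1 among them, and the list summed to at most 0.942 CPM with LPS and 0.865 with PBS.

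In LPS replicate 2 every member but Ms4a4d was at its lowest LPS level. That library also had a sum of 425 CPM over 15 interferon-response genes, against 1569, 1176 and 1419 in the other LPS libraries and 263 to 408 with PBS, and 35564 CPM over the microglia markers, against 28575 to 30549 in the other LPS libraries. The part of these differences in the members' values was not tested. Without it, the log2 fold changes were 7.74 for Ms4a4a (SE 0.43), 3.74 for Ms4a4c (SE 0.28), 4.04 for Ms4a6c (SE 0.11), 2.63 for Ms4a6d (SE 0.09) and 2.06 for Ms4a6b (SE 0.08), all called. Ms4a4b then passed the filter, but only through the LPS libraries, and no test of it is given.

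Markers of other cells were read beside these values. The 8 border macrophage markers summed to 844 to 1207 CPM with LPS and 676 to 701 with PBS, without overlap, Cbr2 (log2 fold change 3.88) and Mrc1 (0.64) being called higher out of 4 tested. The 8 monocyte markers summed to 7.96 to 27.7 CPM with LPS and 11.6 to 16.5 with PBS. The defining monocyte marker Ly6c2 was at 0 to 0.221 CPM with LPS, and Ccr2 fell by 0.81 on the log2 scale, while F13a1 rose (4.30). Cbr2 and F13a1 passed the filter only through the LPS libraries. The 8 neutrophil markers summed to 2.99 to 8.68 CPM with LPS and 33.0 to 70.2 with PBS, and the 6 B cell markers to 34.1 to 49.9 and 53.8 to 58.5. The part of the border macrophage markers in the members' change was not tested.

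**Figure D2:**
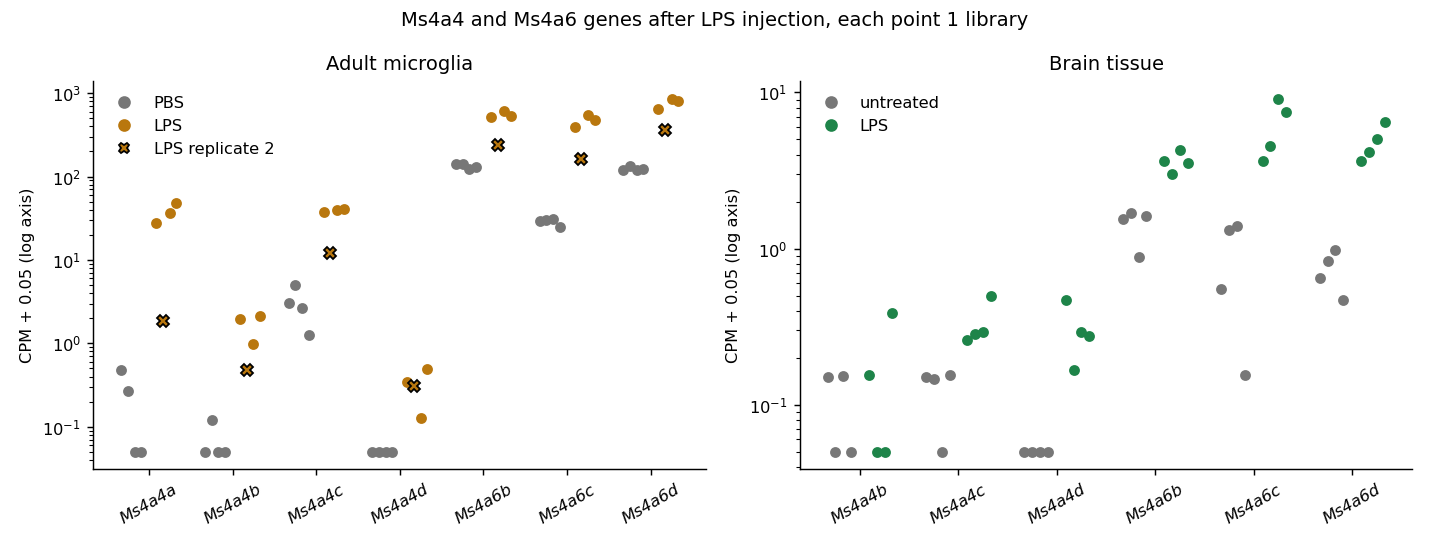
Levels of the members in each adult microglia library (PBS and LPS) and each brain tissue library (untreated and LPS), as CPM plus 0.05 on a log axis, with 4 libraries per group and a cross for adult LPS replicate 2. The cross is the lowest adult LPS point for every member but Ms4a4d, yet lies above all PBS points, as for Ms4a4c at 12.2 CPM against 1.23 to 4.96.

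Per kb of exon, PBS microglia held Ms4a6d at 71.3 ± 3.77 (SD, n = 4), Ms4a6b at 29.9 ± 2.16, Ms4a6c at 13.99 ± 1.27, Ms4a4c at 1.68 ± 0.882 and Ms4a4a at 0.193 ± 0.247 CPM per kb, with no neighbours in this order within each other's spread. With LPS the order was Ms4a6d at 383 ± 128, Ms4a6c at 192 ± 80.5, Ms4a6b at 106 ± 36.8, Ms4a4a at 34.1 ± 23.4 and Ms4a4c at 18.6 ± 7.81. Ms4a6c had passed Ms4a6b in the mean, though their spreads met, as did those of Ms4a6d and Ms4a6c and those of Ms4a4a and Ms4a4c. In CPM without the length, mean Ms4a6b stayed above Ms4a6c with LPS (476 against 394), so this passing depends on the annotated lengths. Ms4a6d ranked 546th of 12942 genes with PBS and 86th with LPS.

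In whole brain tissue, LPS was compared with no treatment to ask whether the change was seen at the level of the tissue. The counts were low. Ms4a6b, Ms4a6c and Ms4a6d were tested, and each was called higher after LPS. None of the 3 would have passed the low-count filter on the untreated libraries alone, so all entered the test through the LPS libraries. Their number is therefore not read against the 2.63% of all genes called higher here, or against the 9.09% with every LPS library above every untreated one. The fold changes and adjusted p-values that follow carry the same limit.

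Ms4a6d had 6, 8, 9 and 4 counts (0.603, 0.777, 0.931 and 0.418 CPM) in untreated brains and 34, 35, 41 and 57 counts (3.59, 4.13, 4.96 and 6.40 CPM) after LPS. It rose 6.85-fold (log2 fold change 2.78, SE 0.29, interval 2.16 to 3.39, adjusted p = 1.52e-05). Ms4a6c had 5, 13, 13 and 1 counts (0.503, 1.26, 1.35 and 0.104 CPM) untreated and 34, 38, 75 and 66 counts (3.59, 4.48, 9.07 and 7.41 CPM) after LPS. Its change was 7.44-fold with a wider error (log2 fold change 2.90, SE 0.50, interval 1.77 to 4.02, adjusted p = 0.00592). Ms4a6b had 15, 17, 8 and 15 counts (1.51, 1.65, 0.828 and 1.57 CPM) untreated and 34, 25, 35 and 31 counts (3.59, 2.95, 4.23 and 3.48 CPM) after LPS. It rose 2.54-fold (log2 fold change 1.35, SE 0.25, interval 0.82 to 1.87, adjusted p = 0.00212).

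The Ms4a4 genes were at the limit of detection in brain. Ms4a4c had 1, 1, 0 and 1 counts untreated and 2, 2, 2 and 4 after LPS, a ratio of pooled counts of 3.79 with an exact counting interval of 0.976 to 21.4. Ms4a4d had 0 counts untreated and 4, 1, 2 and 2 after LPS. This is 3.41-fold higher against a floor of 3 counts over the group, with the LPS counts taken as exact. Ms4a4b had at most 3 counts in any library. Per kb of exon, Ms4a6d, Ms4a6c and Ms4a6b were at 0.393 ± 0.128, 0.392 ± 0.293 and 0.310 ± 0.0844 CPM per kb in untreated brain (SD, n = 4), all within each other's spread. After LPS, Ms4a6c (2.99 ± 1.24) and Ms4a6d (2.75 ± 0.707) lay above Ms4a6b (0.794 ± 0.117).

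Other cells' markers moved in brain tissue too. The microglia markers summed to 163 to 297 CPM after LPS and 224 to 259 untreated, with overlap. The border macrophage markers summed to 38.9 to 47.4 and 24.6 to 26.3 CPM, the monocyte markers to 97.7 to 133 and 51.1 to 60.4, and the neutrophil markers to 4.47 to 9.21 and 1.36 to 2.59, all without overlap. Within these lists Lyve1, Cd163 and Stab1 rose (log2 fold changes 1.68, 0.89 and 0.72), as did Ly6c1 (1.57), which endothelial cells also express, whereas Ly6c2 (0.58, adjusted p = 0.350) was not called and Ccr2 had 2 to 7 counts after LPS against 4 to 11 untreated. Lyve1 passed the filter only through the LPS libraries. The part of these markers in the members' change was not tested.

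The LPS effect in sorted microglia was tested against that in brain tissue in 1 model over the 16 in vivo samples. None of the 4 members tested was called (edgeR, 0 of 4, against 19.7% of all genes), 0 had an unadjusted p under 0.05, and DESeq2 and limma-voom also called 0. The difference, adult minus brain on the log2 scale, was 0.88 for Ms4a6c (SE 1.08, interval -1.46 to 3.22, adjusted p = 0.622), 0.47 for Ms4a6b (SE 0.64, interval -0.90 to 1.85, adjusted p = 0.664), -0.36 for Ms4a6d (SE 0.67, interval -1.80 to 1.07, adjusted p = 0.778) and 1.69 for Ms4a4c (SE 2.31, adjusted p = 0.668). These intervals are wide, and the preparations differ in library kit and control. Without adult LPS replicate 2, the difference for Ms4a6b was 0.69 (SE 0.25, adjusted p = 0.0348) and was called.

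**Figure D3:**
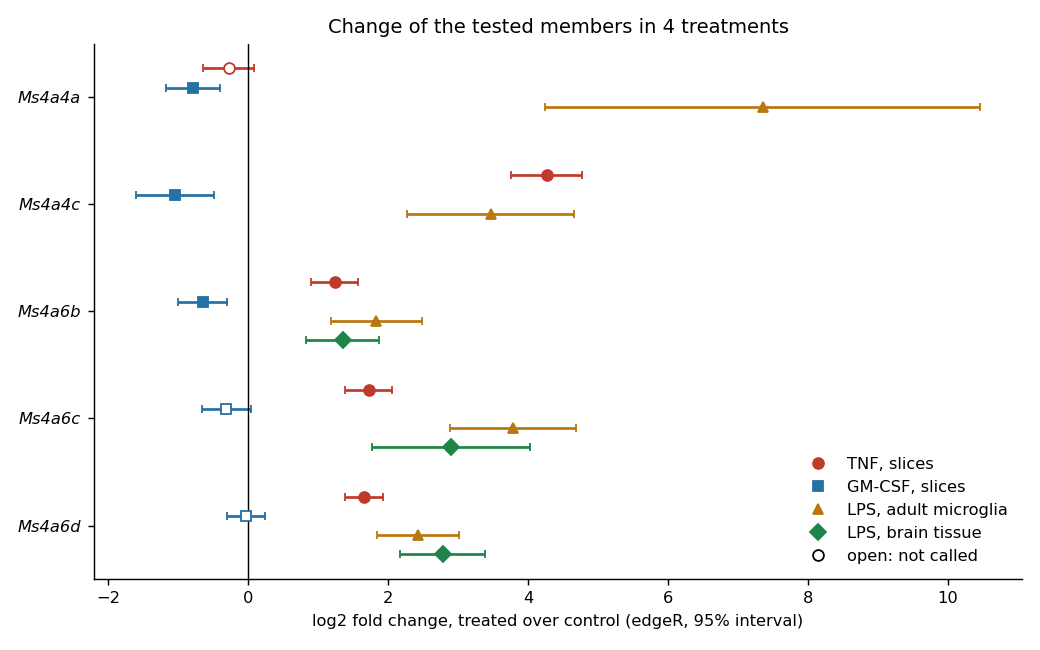
Log2 fold change of each tested gene in each comparison, with its 95% interval from edgeR's quasi-likelihood test, filled where called (adjusted p under 0.05 and over 1.5-fold) and open where not. Ms4a4c (4.27) stands apart with TNF, the GM-CSF values lie between -1.05 and -0.04, and the values for LPS against its control lie between 1.35 and 7.35.

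The mix of Ms4a6 counts differed between slice and adult microglia. This measure, each gene's percent of the summed Ms4a6b, Ms4a6c and Ms4a6d counts of a library, was chosen after its values were seen and is a description. Ms4a6d made up 66.1% ± 2.93 (SD, n = 9) in medium. Its share was 68.6% ± 1.38 over the 11 TNF libraries and 72.4% ± 4.59 over the 9 GM-CSF libraries. In adult microglia it was 43.2% ± 1.46 with PBS and 43.8% ± 2.61 with LPS (n = 4 each). Ms4a6b was 19.2% ± 2.04 in medium but 46.8% ± 1.57 in PBS microglia, and 31.1% ± 1.59 with LPS, and Ms4a6c went from 10.0% ± 0.988 to 25.03% ± 2.41. LPS replicate 2, for all its lower levels, had 21.6% Ms4a6c, above every PBS library (8.88% to 11.3%). The slice and adult tables were counted in different ways, which cannot be told apart from the preparation.

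**Figure D4:**
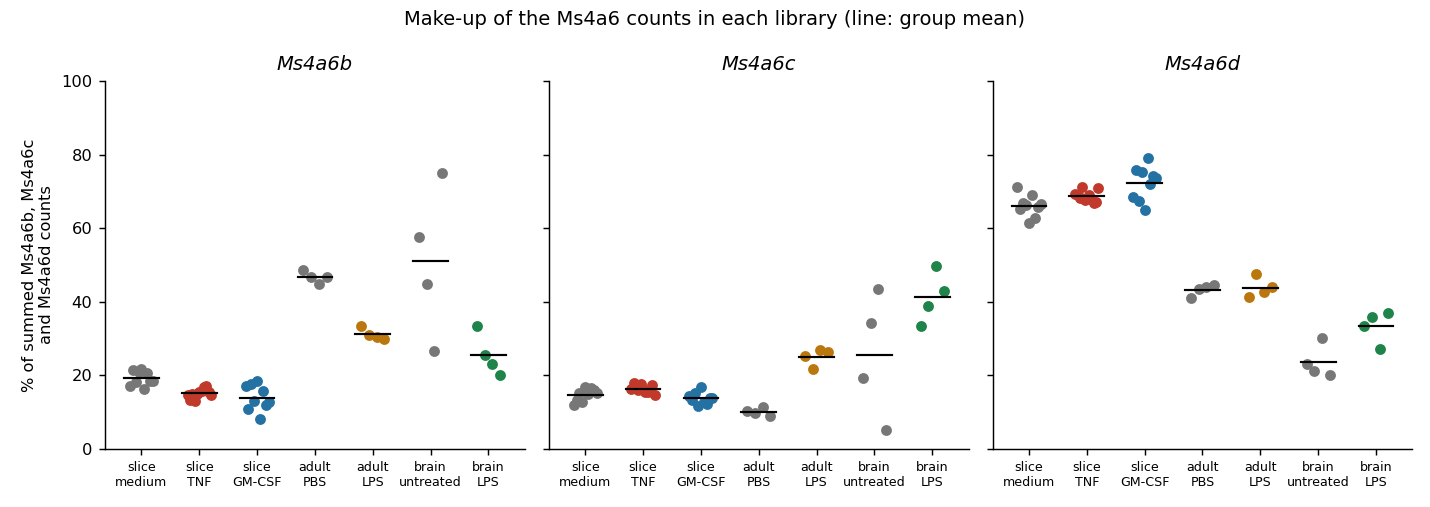
Percent of the summed Ms4a6b, Ms4a6c and Ms4a6d counts that each gene held in every library, with 1 point per library and a line at each group's mean. Ms4a6d lies near 66.1% to 72.4% in the slice groups and near 43.2% to 43.8% in adult microglia; the untreated brain points rest on few counts and scatter.

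Across the 29 slice libraries, Ms4a4c, Ms4a6b, Ms4a6c and Ms4a6d followed one another, with Pearson r of log2(CPM + 1) from 0.91 to 0.98, whereas Ms4a4a had r of 0.20 to 0.39 with them. These points share the 3 treatments, which set most of the spread, and r is given as a description. The genes most alike were Marcksl1, Irf7 and Oas1a for Ms4a4c (r of 0.99, 0.98 and 0.98), Fpr1, Ms4a6c and Ms4a4c for Ms4a6b (0.96, 0.95 and 0.93), Ms4a6d, Fpr1 and Gm6977 for Ms4a6c (0.98, 0.97 and 0.97) and Ms4a6c, Clec4e and Fth1 for Ms4a6d (0.98 each). For Ms4a4a they were Ly96, Serpinb6a and Pla2g16 (0.83, 0.79 and 0.74), Ly96 being the LPS coreceptor MD-2.

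Few other genes of the family had enough counts to be tested. Of the other Ms4a genes and the related Tmem176a and Tmem176b, 4 were tested in the slices, and with TNF none was called higher and 2 lower, at a median log2 fold change of -0.33, where 20.8% of all genes were called. Ms4a7, a gene of macrophages at the brain's borders, was at 0.48 with TNF (adjusted p = 0.222) and Ms4a14 at 0.74 (adjusted p = 0.213), while Tmem176a (-1.15) and Tmem176b (-1.30) fell. With GM-CSF, where 10.8% of all genes were called, all 4 were lower, Ms4a7 at -1.79 (SE 0.33, adjusted p = 0.000139), Ms4a14 at -1.49, Tmem176a at -0.96 and Tmem176b at -0.81. In adult microglia only Tmem176a (0.34, adjusted p = 0.212) and Tmem176b (0.20, adjusted p = 0.293) were tested, and neither was called. In adult microglia Ms4a7 had 1 to 7 counts with PBS and 2 to 7 with LPS. In brain tissue Tmem176a (0.84) and Tmem176b (0.67) both rose.

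The chromosomal neighbours were the protein-coding genes within 500 kb. With TNF, 1 of 7 tested was called, against 20.8% of all genes, namely Ccdc86, higher by 1.12 on the log2 scale. With GM-CSF Ccdc86 was again the 1 of 7 called (1.07), against 10.8% of all genes. Between TNF and GM-CSF, 2 of 7 were called, against 16.2% of all genes, with Tmem109 (-0.68) and Prpf19 (-0.64) lower with TNF. In adult microglia 2 of 8 were called, against 27.4% of all genes, Ccdc86 (2.05) and Gm8369, a gene inside the span whose coding sequence was identical to Ms4a4c at 89.2% of aligned bases. Gm8369 had 3, 8, 2 and 2 counts with PBS and 61, 19, 70 and 54 with LPS (log2 fold change 3.76, SE 0.49, adjusted p = 6.55e-05), lowest again in LPS replicate 2, and it passed the filter only through the LPS libraries. In brain tissue 0 of 6 neighbours were called by edgeR, against 3.18% of all genes, and 0 had an unadjusted p under 0.05. Tmem109, Prpf19, Mrpl16, Stx3, Patl1 and Osbp were not called against medium, PBS or no treatment in any comparison in which they were tested.

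**Figure D5:**
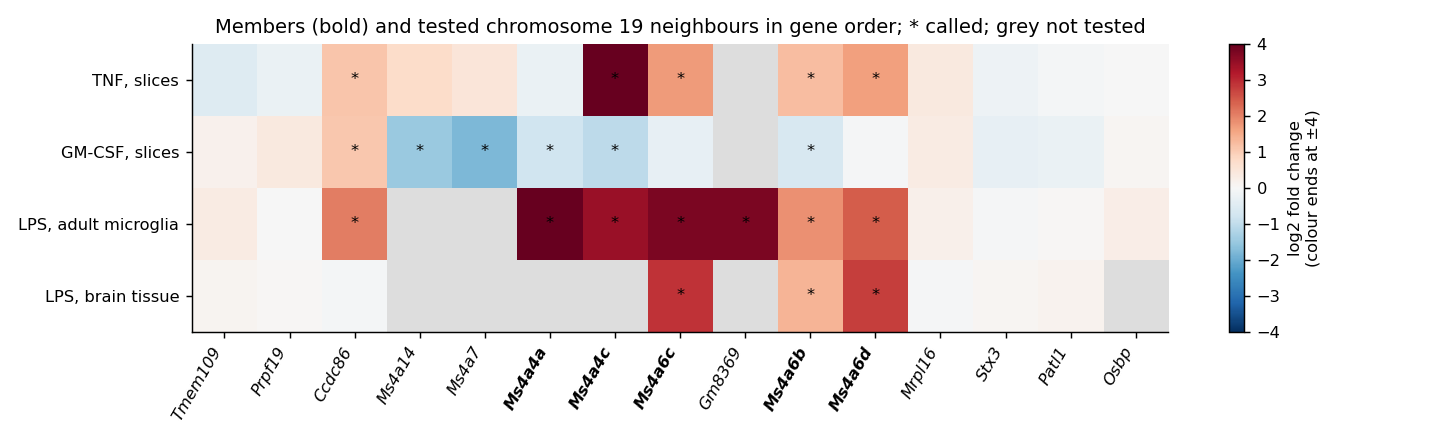
Log2 fold change of the members (bold), other Ms4a genes and neighbours tested, in gene order along chromosome 19, for each treatment against its control, with an asterisk where called, grey where not tested and colours ending at -4 and 4. The members Ms4a4c, Ms4a6b, Ms4a6c and Ms4a6d are higher with TNF and the tested members higher with LPS, and Ms4a7 and Ms4a14 are lower with GM-CSF, while outside the Ms4a genes only Ccdc86 and Gm8369 carry an asterisk.

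Genes around TREM2 were read beside the members. Of 16 TREM2 partners and myeloid Alzheimer risk genes, 1 was called higher and 5 lower with TNF, where 20.8% of all genes were called, at a median log2 fold change of -0.33, with Trem2 at -1.16, Inpp5d at -0.94 and Picalm at -0.71. With GM-CSF 1 was higher and 4 lower (median -0.29), where 10.8% of all genes were called, with Trem2 at -0.89, Grn at -0.61 and Bin1 at -0.59. In adult microglia 2 were higher and 2 lower (median -0.04), a share near the 27.4% of all genes called there, with Trem2 at -0.97, Cd33 at -0.94 and Treml2 at 2.26. In brain tissue 5 of 15 tested were higher and none lower (median 0.31), where 3.18% of all genes were called, Abi3 at 1.22 and Tyrobp at 0.64 among them, with Grn at 0.55 under the fold limit. Trem2 was thus lower in all 3 comparisons of sorted microglia, including both in which Ms4a4c and the Ms4a6 genes were higher.

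Interferon-response genes were described beside the members because Irf7 was among the genes most like Ms4a4c. With TNF all 15 were called higher (median log2 fold change 4.34), Isg15 at 4.42 and Bst2 at 1.89 among them, where 9.1% of all genes were. At least 10 counts in every library were reached by 11 of the 15 in medium and by 15 with TNF. Some may thus not have passed the filter on the medium libraries alone, so the 15 are not read against that share. With GM-CSF 11 were called lower and none higher (median -1.17), where 5.96% of all genes were called lower. Rtp4 was at -2.12, Xaf1 at -1.17 and Usp18 at -1.17. In adult microglia all 14 tested were called higher (median 2.27), against 14.4% of all genes, with Isg15 at 2.36, Cmpk2 at 2.12 and Bst2 at 1.43. In brain tissue all 15 had a positive log2 fold change (median 2.00), with Irf7 at 3.14 and Ifit3 at 1.54. Of these, 13 were called higher, where 2.63% of all genes were. In brain, 12 of the 15 had at least 10 counts in every untreated library and 15 in every LPS library, so the same limit holds. Ms4a4c and Ms4a6b were called in the direction of the list's median with TNF, with GM-CSF and with LPS in adult microglia. Ms4a4a was not called with TNF, and Ms4a6c and Ms4a6d were not called with GM-CSF. The list was taken up after Irf7 was seen beside Ms4a4c in the slice libraries. Their shared direction in the slices was thus in part fixed beforehand and is a description only.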

How the data were processed

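Counts per gene were analysed for 29 slice microglia, 8 adult microglia and 8 brain samples, grouped by GEO's labels. The authors deposited whole-number counts for the slices, for which the submitters' processing notes name STAR 2.7.0a, featureCounts, Subread 1.6.4 and mm10 (75-base single-end reads). For adult microglia (50-base paired-end reads) and brain (50-base single-end reads) the authors deposited expected counts. Their aligner and counter were not given in the sources used here. The build is mm10, and values were rounded, which changed the totals by 0.00107% and 0.00113%. The brain table has 92 entries that name no gene, with 0 counts. How the reads of near copies were assigned is not stated, and expected counts split them by a model whereas whole-number counts may leave them out. Microglia libraries (SMART-Seq v4, Nextera XT) do not mark strand.

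Genes passing filterByExpr (minimum count 10, total 15) were tested by edgeR 4.0.16 in R 4.3.3 (TMM, robust quasi-likelihood fit, Benjamini-Hochberg adjustment), the 29 slice libraries in 1 fit with group as the only term. Intervals are 95%. Those of the log2 fold changes come from the edgeR fit and include the spread between libraries. Depth was 5973364 to 14216005 counts per library. The exact intervals of pooled counts cover counting error only, and the floors (3 counts) only that of the group without counts. Within groups, chi-square per degree of freedom between replicates was at least 1.77, so no pair agreed within sampling noise. The labels do not say whether slice samples came from separate animals, so their p-values measure the spread between samples. All 7 members are named. In the lists, all tested family genes and neighbours are named, or the 3 with the smallest p, of which 1 is not reported here. The members and lists were chosen with earlier results of these data known. Scripts were tested on simulated data. Same-numbered slice samples of different groups had a median r of 0.088 (-0.059 to 0.211), other pairs -0.026. Slice pairs of the same title code had a median r of 0.100, pairs of different codes -0.041. The paper describes the slice data as pooled from independent experiments, for which the main fit has no term. Same-numbered samples did not pair in adult microglia (r of -0.064 to 0.037) or brain (-0.081 to 0.038). Alternatives were other scalings, filters, DESeq2 1.42.0, limma-voom 3.58.1, no fold limit, replicate and title code blocks, code subsets, fits of 2 groups, members summed, and libraries left out.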

Additional observations from a re-analysis of the deposited data

Results flagged for a closer look

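Among 25 groups of 4 to 10 libraries examined, 2 had a library far from the others, where chance gives about 1 in 20. Ms4a4c in adult LPS replicate 2 was at 12.2 CPM, while the other LPS libraries were at 37.6 to 41.1 CPM, the gap being 0.879 of the group's range. Ms4a4a in GM-CSF replicate 5 was at 45.5 CPM in a group otherwise reaching down to 21.2 CPM, the gap being 0.542 of the range. No cause of either was tested.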

How the results depend on the processing

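Of the recomputed log2 fold changes of the members, 472 kept their direction and their side of the threshold, 5 became called, 7 lost the call and 5 changed sign. The sign changes were in values near 0 under GM-CSF: Ms4a6d was at 0.0639 with total counts, 0.00195 with the title code as a block, 0.15 with codes 1A and 1B alone and 0.0522 without code 2B, and Ms4a6c was at 0.0822 with codes 1A and 1B alone. Members called with GM-CSF went from 3 to 1 with codes 1A and 1B alone and to 1 without code 2B. Ms4a6b with GM-CSF was also under the fold limit with total counts (-0.55). Total counts moved the median of all genes by 0.105 with GM-CSF and by -0.17 for TNF against GM-CSF, and the share of calls that were higher from 44.8% to 63.9% and from 50.9% to 31.4%. The difference of LPS effects had 0 to 1 members called when 1 library was left out, the 1 being Ms4a6b without adult LPS replicate 2. With the members summed into 1 Ms4a4 and 1 Ms4a6 gene, 2 of 2 were called for TNF, 1 for GM-CSF (Ms4a4), 2 for TNF against GM-CSF, 2 for LPS in adult microglia and 1 of 1 in brain, fewer by construction. The replicate block, a shared number without a stated link, left 4 members called for TNF, 3 for GM-CSF, 4 for TNF against GM-CSF, 5 in adult microglia, 3 in brain and 0 for the difference. Without a fold limit the genes called rose from 2353 to 4476 for TNF, 1222 to 2892 for GM-CSF, 1833 to 3486 for TNF against GM-CSF, 3563 to 6703 in adult microglia, 479 to 1533 in brain and 3288 to 5134 for the difference, and with codes 2A and 2B alone GM-CSF called 785. The causes were not tested. Depth limits Ms4a4b and Ms4a4d everywhere and all members in brain.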
